A study of Homo sapiens with 6 samples.

Results

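The SOX genes encode transcription factors that bind DNA through an HMG box and are known for setting cell identity in the neural tube, the neural crest and glia. Those known in glioma and glial development were followed here through maps of N6-methyladenosine (m6A), the methyl mark that METTL3 and its partners write on RNA. The 10 genes were SOX2, SOX4, SOX5, SOX6, SOX8, SOX9, SOX10, SOX11, SOX12 and SOX13, out of 20037 coding genes in the RefSeq table. Their peaks are those of the 3 peak lists that touch the RefSeq body of the gene on GRCh38, 26 of 17375 peaks in all. The genes are known by subgroup. SOX2, of group B, maintains neural stem cells and is used as a marker of glioma stem cells. SOX4, SOX11 and SOX12, of group C, act in neuronal differentiation and progenitor survival. SOX8, SOX9 and SOX10, of group E, specify glia and neural crest, and SOX5, SOX6 and SOX13, of group D, lack a transactivation domain of their own and often modulate other SOX factors. SOX2, SOX4, SOX11 and SOX12 have no introns. m6A is known to mark many messages of regulatory genes for faster decay and lies most often near the stop codon and in the last exon.

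The cells were U-251 MG, a human glioblastoma line, and all 3 conditions carried a short hairpin RNA. In shTRA2A cells it targeted TRA2A, a splicing regulator of the SR-like kind. In shMETTL3 cells it targeted METTL3, the enzyme that transfers the methyl group in the m6A writer, and shNC cells carried a control hairpin. The labels do not say how many hairpins were used per gene or whether the cells were a clone or a pool. Methylated RNA immunoprecipitation sequencing gave 1 immunoprecipitated and 1 input library per condition, which makes 6 libraries and 1 peak list for each of the 3 conditions. There are no replicates, so conditions are described side by side and not tested against each other.

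The shTRA2A list held 2736 peaks, the shMETTL3 list 5433 and the shNC list 9206. Each peak has the authors' own score, on a scale that is not stated. The score ran from 3.39 to 54.5 in shTRA2A, from 3.33 to 151 in shMETTL3 and from 6.04 to 392 in shNC, so it is used here to rank a peak within its own list and never between lists. Peak lists hold no transcript levels. A gene without a peak may be untranscribed, too weakly transcribed to call or unmethylated, and these cannot be told apart. For the same reason the strength of either knockdown was not measured: METTL3 had no peak in any list, and TRA2A had 1 shTRA2A peak and none in shMETTL3 or shNC. Among the marker genes, NES, a marker of neural progenitors and glioma, had 3 shTRA2A, 5 shMETTL3 and 3 shNC peaks, while none of the 9 markers of neurons, microglia and endothelium had a peak in any list. GFAP, the astrocyte filament protein, had 1 shMETTL3 peak and no other.

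Of the 10 SOX genes, 5 carried no peak and 4 carried one in every list. SOX2, SOX4, SOX9 and SOX12 had peaks in shTRA2A, shMETTL3 and shNC alike. SOX13 had a single peak, in shNC. SOX5, SOX6, SOX8, SOX10 and SOX11 had none in any list. The share with a peak in every list was 4 of 10, 40% (12.2 to 73.8%, exact Clopper-Pearson 95% interval, which covers counting error alone), beside 4.44% of all coding genes. List by list, peaks were present in 4 of the 10 in shTRA2A, 4 in shMETTL3 and 5 in shNC, beside 9.55, 17.1 and 21.9% of all coding genes. By subgroup, group B gave 1 of 1 gene with peaks in every list, group C 2 of 3, group E 1 of 3 and group D 0 of 3. The 4 genes have bodies of 2512 to 5397 nt, and short coding genes seldom had peaks in these lists: of 5694 coding genes with bodies of at most 10000 nt, a limit set after the values were seen, 1.30% had a peak in every list. Of the 6 SOX genes that short, 4 did. SOX8 and SOX11 were the other two. The long bodies of SOX5 (12:23529504-24562650) and SOX6 (11:15966449-16738477) touched no peak over 1033147 and 772029 nt. SOX10 (22:37972312-37984555), the master regulator of oligodendrocyte and Schwann cell fate, SOX8 (16:981770-986979), its close relative, and SOX11 (2:5692384-5701385), a factor of immature neurons, also lacked peaks.

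All 25 peaks of SOX2, SOX4, SOX9 and SOX12 lay on the plus strand. That is the strand the RefSeq promoter table gives for SOX2, SOX4 and SOX12, and SOX9 is not in that table. All 25 were also of regular shape, that is 1 block, a multiple of 25 nt and at most 1000 nt wide, against 66.6% of shTRA2A, 69.4% of shMETTL3 and 79.9% of shNC peaks. SOX2, SOX4 and SOX12 have no introns, and these shares are not limited to such genes, so like is not set against like. Their midpoints lay between 23.6 and 64.4% of the way along the gene body in shTRA2A (median 57.0%), between 20.7 and 66.0% in shMETTL3 (median 56.3%) and between 4.61 and 66.5% in shNC (median 51.1%). The stretch towards the 3′ end of each body, beyond 66.5%, thus held the centre of no peak in these 4 genes. The same was read over all coding bodies of at most 10000 nt, along the strand of the peak. Peaks counted there if their width was a multiple of 25 nt and at most 1000 nt, whatever their blocks. The median position was 61.1% in shTRA2A, 59.1% in shMETTL3 and 62.6% in shNC, and the upper quartile 81.4, 81.5 and 81.3%.

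**Figure D1:**
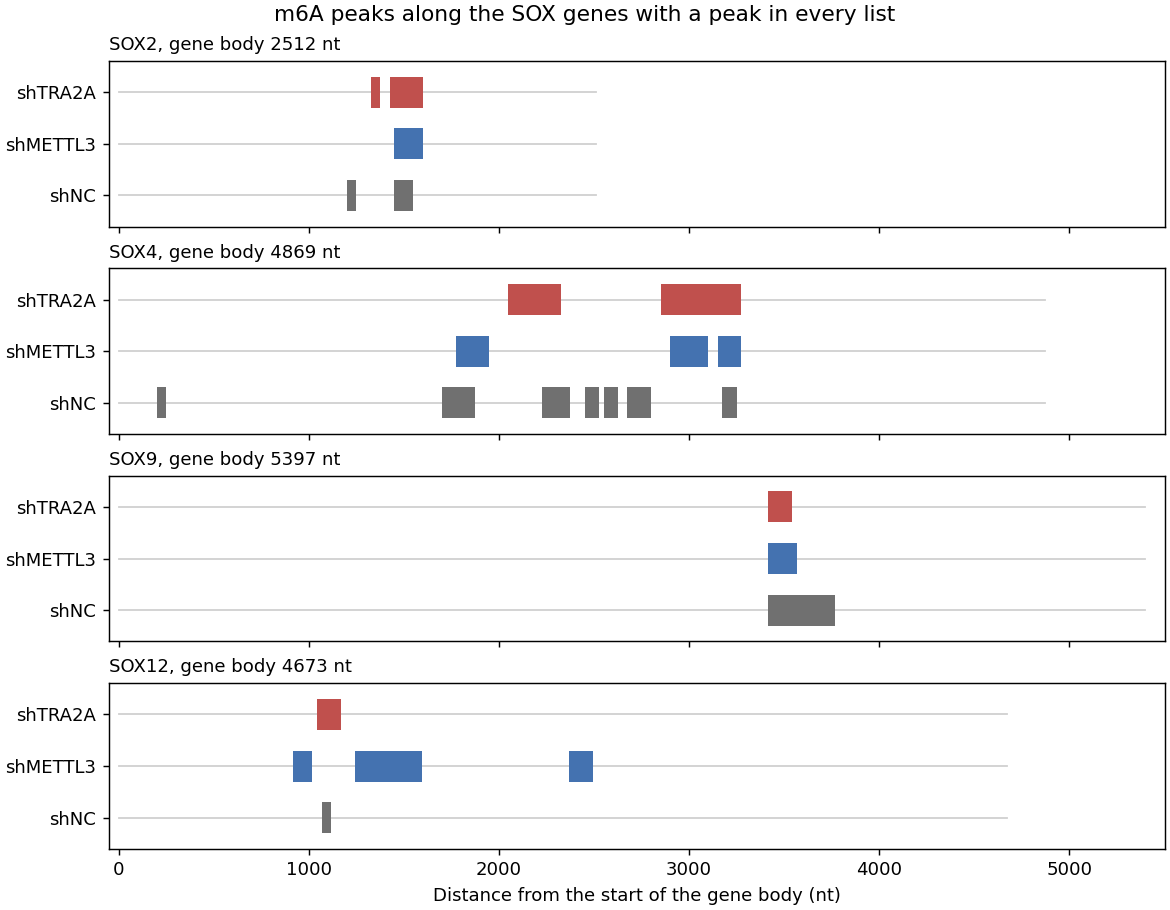
Peaks of the shTRA2A, shMETTL3 and shNC lists, top to bottom in each panel, drawn to scale against the distance in nt from the start of the gene body, which the grey line spans. SOX9 has 1 peak with the same start in every list, SOX4 has 7 shNC peaks against 2 in shTRA2A and 3 in shMETTL3, and SOX12 has 3 shMETTL3 peaks around a single shNC peak.

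SOX2 (3:181711925-181714436) had 2 shTRA2A peaks, 1 shMETTL3 peak and 2 shNC peaks, and one place was called in every list. That place was 3:181713350-181713524 in shTRA2A (175 nt, score 15.5), 3:181713375-181713524 in shMETTL3 (150 nt, score 6.40) and 3:181713375-181713474 in shNC (100 nt, score 21.7). Both knockdown peaks therefore contained the whole shNC peak. Its standing differed between lists. It was rank 77 of 2736 in shTRA2A, in the top 2.81%, and rank 4763 of 5433 in shMETTL3, among the weakest there, while in shNC it was rank 1738 of 9206, in the top 18.9%. Ranks from lists of different length describe each list and show no change. The second shNC peak, of 50 nt at 3:181713125-181713174 (score 9.97), was met by neither knockdown list, and the second shTRA2A peak, of 50 nt at 3:181713250-181713299 (score 9.31), lay 75 nt from the nearest shNC peak. SOX2 lies inside the body of SOX2-OT, a long non-coding RNA read from the same strand (3:181056680-181742228), so reads of the 2 transcripts cannot be told apart here.

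SOX4 (6:21593751-21598619) carried the most shNC peaks of the family. It had 2 shTRA2A peaks, 3 shMETTL3 peaks and 7 shNC peaks, or 0.411, 0.616 and 1.44 peaks per kb of body. Of the 561 coding genes with bodies of at most 10000 nt and an shNC peak, 0.713% had 7 or more shNC peaks, and of all 4398 coding genes with an shNC peak 3.37% did. The fewer shTRA2A peaks were wide: they covered 700 nt in shTRA2A (mean width 350 nt), 500 nt in shMETTL3 (mean width 167 nt) and 725 nt in shNC (mean width 104 nt). By number of peaks SOX4 was lowest in shTRA2A, and by bases under peaks in shMETTL3.

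The shTRA2A peaks of SOX4 were among the best of that list. The one at 6:21596601-21597025 (425 nt, score 17.9) was rank 51 of 2736, and the one at 6:21595801-21596075 (275 nt, score 14.7) was rank 91, so both were in the top 3.33%. In shMETTL3 the peak at 6:21595526-21595700 (score 15.3) was rank 573 of 5433, and those at 6:21596651-21596850 (score 7.09) and 6:21596901-21597025 (score 7.55) were ranks 4298 and 3795. The 7 shNC peaks scored 10.3 to 22.7 and ran from rank 1612 to rank 6457 of 9206.

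Place by place, SOX4 had 7 separate stretches of peak over the 3 lists. The last, at 6:21596601-21597025, was called in every list and holds the best shNC peak of the gene (6:21596926-21597000, score 22.7). The stretch at 6:21595801-21596125 was called in shTRA2A and shNC, and the one at 6:21595451-21595700 in shMETTL3 and shNC. The other 4 were called in shNC alone, 3 of them between 6:21596201 and 6:21596550, with scores of 11.7, 18.6 and 17.0. The remaining one was a peak near the start of the gene, at 6:21593951-21594000 (score 10.3), centred 4.61% of the way along the body, while the next peak of the 4 genes in that order, in SOX12, was centred at 20.7%.

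SOX9 (17:72121020-72126416), a factor of glial and cartilage fate, held the strongest shNC peak of the family, and the lists placed it at one site. The peak began at 17:72124436 in every list and ended at 72124560 in shTRA2A (125 nt), at 72124585 in shMETTL3 (150 nt) and at 72124785 in shNC (350 nt). Both knockdown peaks thus lay wholly within the first part of the shNC peak. A shared start in every list was found in 7.60% of 342 shNC peaks met in both knockdown lists. Peaks counted there if their width was a multiple of 25 nt and at most 1000 nt, whatever their blocks. The score of the SOX9 peak was 8.00 in shTRA2A, rank 1370 of 2736 and tied with 20 other peaks. It was 19.6 in shMETTL3, rank 279 of 5433, and 54.2 in shNC, rank 245 of 9206. SOX9 was therefore in the top 5.14% of shMETTL3 and the top 2.66% of shNC, and mid-list in shTRA2A, where the best SOX2 and SOX4 peaks stood higher.

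SOX12 (20:325552-330224), a broadly expressed group C factor, had more peaks in shMETTL3 than in shNC. It had 1 shTRA2A peak of 125 nt at 20:326595-326719 (score 7.51), 3 shMETTL3 peaks and 1 shNC peak of 50 nt at 20:326620-326669 (score 8.73). The shTRA2A peak contained the whole shNC peak. The shMETTL3 peaks lay at 20:326470-326569 (score 14.3, rank 690 of 5433), 20:326795-327144 (score 9.62) and 20:327920-328044 (score 4.36, rank 5270), which is 50, 125 and 1250 nt away from the shNC peak, so none met it. Of coding genes with an shNC peak, 8.23% had more shMETTL3 than shNC peaks. Bases under SOX12 peaks came to 125 nt in shTRA2A, 575 nt in shMETTL3 and 50 nt in shNC. The shNC peak was one of the weaker ones of its list, rank 8371 of 9206.

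**Figure D2:**
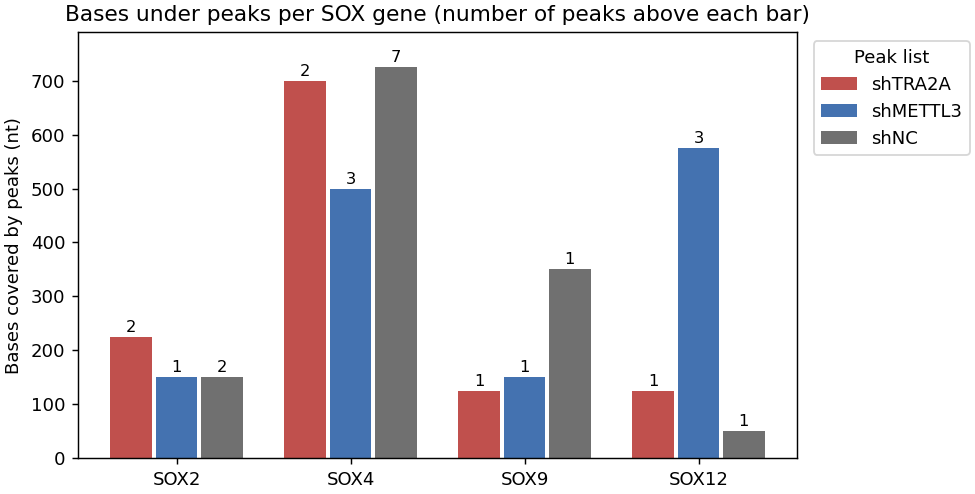
Bases under peaks in nt for SOX2, SOX4, SOX9 and SOX12 in the shTRA2A, shMETTL3 and shNC lists, with the number of peaks above each bar. SOX4 was covered over 700, 500 and 725 nt although its peaks numbered 2, 3 and 7, SOX9 was covered most in shNC with 350 nt, and SOX12 most in shMETTL3 with 575 nt.

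SOX13 (1:204073115-204127743), a group D factor, had its single peak on the strand opposite to the gene. The shNC peak spanned 7048 nt at 1:204066908-204073955 on the minus strand (score 11.0, rank 5738 of 9206). Its span reached 6207 nt upstream of the gene's first base and took in the first 841 nt of the body. Its width is not a multiple of 25 nt. The number of blocks in this peak is not given here, so not every base of its span need have been called. No other gene of the RefSeq table lies under it within these bounds. It is on the other strand from the SOX13 message. The 250 bases before the gene's start (1:204072865-204073114, GRCh38.p14, RefSeq, plus strand of the gene) lie wholly inside the span of that peak. They are shown because they are the only sequence available here within the span of a SOX peak. The capitals mark the one match to GGACT, a common m6A context, which reads as AGTCC here because it is on the minus strand, the strand of the peak.
SOX13: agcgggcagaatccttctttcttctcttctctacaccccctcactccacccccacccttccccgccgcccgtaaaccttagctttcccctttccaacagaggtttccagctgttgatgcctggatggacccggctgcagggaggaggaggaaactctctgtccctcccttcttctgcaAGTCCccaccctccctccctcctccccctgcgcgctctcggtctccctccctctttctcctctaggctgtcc
Of 34943 such upstream windows, 21.4% held GGACT on the strand opposite to their gene and 37.7% on either strand, so such a match is common.

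**Figure D3:**
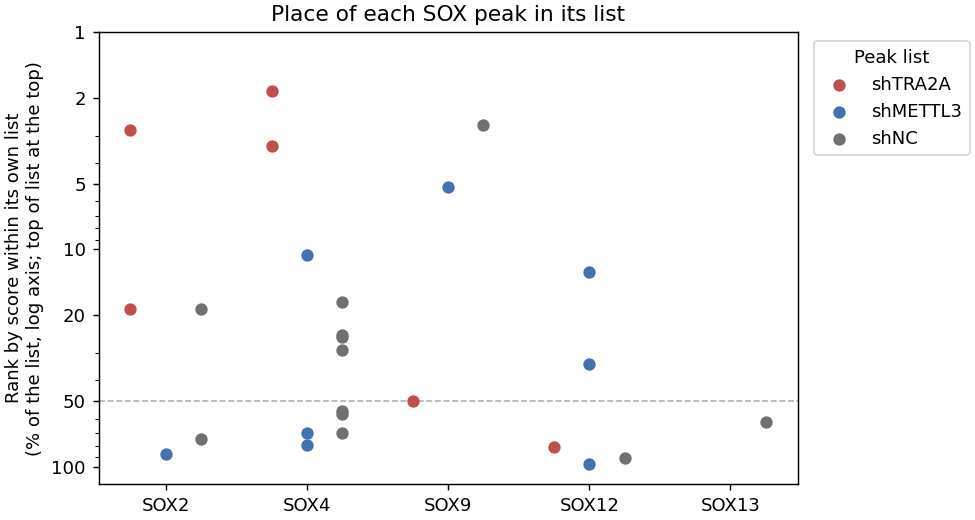
Rank of each SOX peak by score within its own list, as a percent of the list on a log axis with the strongest peaks at the top, for shTRA2A, shMETTL3 and shNC side by side in each gene. The best SOX2 and SOX4 peaks are in the top 3.33% of the shTRA2A list, whereas the SOX9 peak is near the top of shMETTL3 and shNC and at the middle of shTRA2A.

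Setting shTRA2A against shNC asks whether control m6A peaks are still called when TRA2A is targeted. Of the 12 shNC peaks of SOX genes, 5 met an shTRA2A peak, that is, had 1 or more bases in common with one on their own strand, 41.7% (15.2 to 72.3%), beside 9.58% of all shNC peaks. They lay in SOX2, SOX4 (2 of its 7), SOX9 and SOX12. All 3 SOX peaks in the top score quintile of shNC, those of SOX2, SOX4 and SOX9, were met, where 28.2% of that quintile were. The SOX12 peak was met as well, although it is in the lowest quintile, of which 0.923% were. In quintiles 2, 3 and 4, counted from the lowest, 0 of 3, 0 of 2 and 1 of 3 SOX peaks were met, beside 3.53, 5.59 and 9.61%. Seen from the knockdown, 5 of 6 shTRA2A peaks of SOX genes were on an shNC peak, 83.3% (35.9 to 99.6%), beside 33.8% of the list. By gene, 4 of the 5 with an shNC peak had an shTRA2A peak, 80% (28.4 to 99.5%), an interval that just holds the 28.7% of coding genes. The share was 20.5% of coding genes with bodies of at most 10000 nt. A peak in both knockdown lists was found for 4 of the 5, beside 20.2% of coding genes with an shNC peak. SOX4 gives 7 of the 12 peaks, and peaks of one gene are not independent, so the intervals may be too narrow. With midpoints within 100 nt in place of shared bases, 2 of 12 shNC peaks were met, 16.7%, beside 7.20% of all.

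Setting shMETTL3 against shNC asks the same with the m6A writer targeted. Of the 12 shNC peaks of SOX genes, 4 were met, 33.3% (9.92 to 65.1%), an interval that holds the 17.9% of all shNC peaks. They lay in SOX2, SOX4 (2 of its 7) and SOX9, and the 3 in the top quintile were met again, where 44.2% of that quintile were. In quintiles 1 to 4, counted from the lowest, 0 of 1, 0 of 3, 1 of 2 and 0 of 3 SOX peaks were met, beside 2.71, 7.66, 13.7 and 21.3%. From the other side, 4 of 8 shMETTL3 peaks of SOX genes were on an shNC peak, 50% (15.7 to 84.3%), beside 32.7% of the list. By gene, 4 of 5 had an shMETTL3 peak, 80% (28.4 to 99.5%). That interval holds the 48.6% of coding genes and the 40.6% of those with bodies of at most 10000 nt. When each list was reduced to its better-scoring 50%, 1 of 6 SOX peaks was met, 16.7%, beside 19.0% of all. The shTRA2A and shMETTL3 comparisons share the shNC list. In 3 of the 12 shNC peaks both knockdown lists had a peak, 25% (5.49 to 57.2%), beside 5.01% of all shNC peaks. In 6 of the 12 neither did, 50% (21.1 to 78.9%). To be met by neither was the usual outcome over all shNC peaks, of which 9.58% met an shTRA2A and 17.9% an shMETTL3 peak.

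**Figure D4:**
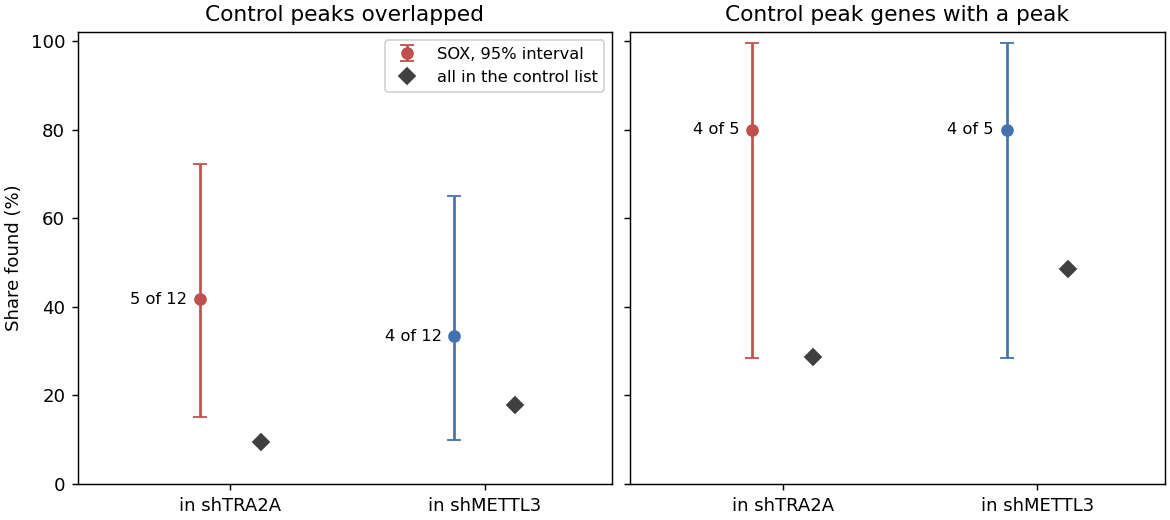
Share in percent of shNC peaks that meet a knockdown peak, left, and of genes with an shNC peak that have a knockdown peak, right. Circles are SOX genes with exact 95% intervals and diamonds are all shNC peaks or all coding genes with one: 5 of 12 and 4 of 12 SOX peaks were met, and 4 of 5 SOX genes had a peak in each knockdown list.

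Over the 3 lists, the SOX peaks merged into 16 separate stretches. Of these, 3 were called in every list (in SOX2, SOX4 and SOX9), 3 in 2 of the lists and 10 in a single list. Stretches were not counted over all peaks, so whether these numbers are usual for the lists cannot be read here. The single-list stretches were 1 in shTRA2A (SOX2), 3 in shMETTL3 (all in SOX12) and 6 in shNC (4 in SOX4, 1 in SOX2 and the one at SOX13).

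Genes around the SOX factors were taken from lists by role. Of the 9 other SOX genes (SOX1, SOX3, SOX7, SOX14, SOX15, SOX17, SOX18, SOX21 and SOX30), SOX18, an endothelial factor, had 1 shMETTL3 peak (20:64048182-64048306, score 10.4) and the others had none in any list. Of 26 other genes with an HMG box, 7 had an shTRA2A, 9 an shMETTL3 and 13 an shNC peak, beside 9.55, 17.1 and 21.9% of all coding genes. Of the 13, 5 had an shTRA2A peak, 38.5% (13.9 to 68.4%), and 7 an shMETTL3 peak, 53.8% (25.1 to 80.8%), beside 28.7 and 48.6% of coding genes. KMT2C, a histone methyltransferase, had 2 shTRA2A, 4 shMETTL3 and 11 shNC peaks, and PBRM1, a subunit of a chromatin remodeller, 1, 3 and 2. HMGB1, a DNA-bending chromatin protein, and BBX had 3 and 4 shNC peaks and none in the knockdown lists.

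Of 20 partner factors and coactivators of SOX proteins, 10 had an shNC peak, beside 21.9% of all coding genes. Of these 10, 8 had an shTRA2A peak, 80% (44.4 to 97.5%), and 7 an shMETTL3 peak, 70% (34.8 to 93.3%). The shares were 28.7 and 48.6% of all coding genes with an shNC peak. The second interval holds its background share, and no background was matched to these genes for body length or number of peaks. POU3F2, the POU factor that binds with SOX2 in neural progenitors, had 1 shTRA2A, 2 shMETTL3 and 2 shNC peaks. EP300, an acetyltransferase coactivator, had 1, 1 and 7, and CTNNB1, the Wnt effector beta-catenin, 0, 0 and 1. Of 24 neural and glial lineage regulators, 11 had an shNC peak, beside 21.9% of all coding genes. Of the 11, 6 had an shTRA2A peak and 6, not all the same genes, an shMETTL3 peak. Each share was 54.5% (23.4 to 83.3%), an interval that holds both the 28.7% (shTRA2A) and the 48.6% (shMETTL3) of coding genes with an shNC peak. A peak in every list was found for 4 of the 24, beside 4.44% of all coding genes. NOTCH2, a receptor of progenitor maintenance, had 2, 1 and 1 peaks and ZEB1, a regulator of mesenchymal state, 1, 0 and 7. ID2, an inhibitor of lineage factors, and TCF4, a basic helix-loop-helix factor, had 1 and 2 shNC peaks and none in the knockdown lists.

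Of 29 target genes of glia, neural crest and cartilage, 1 had a peak in shTRA2A, 4 in shMETTL3 and 5 in shNC, and of the 5, 1 also had a peak in shTRA2A and 2 had one in shMETTL3. Beside 9.55, 17.1 and 21.9% of all coding genes, and 28.7 and 48.6% of those with an shNC peak, these counts were no higher than the background. NES, whose neural enhancer is bound by SOX2, was the one with peaks in every list. SLC1A3, the glial glutamate transporter, had 0, 2 and 3 peaks, and EZH2, a Polycomb methyltransferase, and MATN1, a cartilage matrix protein, had 1 shNC peak each and no other. Among 12 regulators of SOX protein turnover, 3 had an shTRA2A, 3 an shMETTL3 and 4 an shNC peak, and of the 4, 1 also had a peak in shTRA2A and 2 had one in shMETTL3. The background is again 9.55, 17.1 and 21.9% of all coding genes and 28.7 and 48.6% of those with an shNC peak, and 12 genes are too few to read a difference from it. TRIP12, a ubiquitin ligase, had 3, 1 and 3 peaks, and FBXW7, the ligase subunit that marks SOX9 for degradation, 0, 2 and 4. PIAS1, a SUMO ligase, and GSK3B, a kinase that primes SOX9 for FBXW7, had 2 and 1 shNC peaks and none in the knockdown lists.

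The genes nearest to SOX4 by numbers of peaks in the 3 lists were HEG1, an endothelial membrane protein, and LMO7, an actin-linked adaptor, each with the same 2 shTRA2A, 3 shMETTL3 and 7 shNC peaks, and ANKRD11, a chromatin regulator, with 3, 3 and 7. Likeness was the sum of absolute differences over the 3 counts, by which 8 genes differed from SOX4 by 1 peak and 29 by 2.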

How the data were processed

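Fragmented RNA of U-251 MG cells was sequenced after m6A immunoprecipitation and as input. HISAT2 2.2.1, SAMtools, featureCounts 2.0.1 and GRCh38 are listed, per the submitters' processing notes. The peak caller and the read depth are not stated in the labels or files. The deposited lists give each peak a score whose scale is not stated, and a larger score was taken as stronger. One further list equals the shTRA2A list byte for byte under a name that matches no label, and was not used.

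Gene bodies came from RefSeq (GRCh38.p14), and a peak counts for every coding body it touches on either strand. An shNC peak was met if 1 or more of its bases lay in a peak on its strand. Coordinates count from 1. Analyses used Python 3.11.15, pandas 2.3.3 and scipy 1.17.1. Overlaps were tested on simulated data and against bedtools 2.31.1 (0 peaks differed). Promoter sequences matched 6 of the 10 SOX genes. The members and gene lists were chosen with earlier results of these data known. All 10 SOX genes are named, and per list the 2 genes with the best shNC peak among those with and among those without a knockdown peak. GFAP and SOX18 were named after their values were seen.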

Additional observations from a re-analysis of the deposited data

How the results depend on the processing

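Read depth and replicate spread are unknown here, so counts of 12 or fewer peaks set the precision. Of shNC SOX peaks, 16.7 to 66.7% were met in shTRA2A and 16.7 to 44.4% in shMETTL3 over other overlap rules, either strand, score limits, merging within 100 nt, regular peaks alone, and leaving out SOX4 or SOX13 (a choice made after the data were seen). With all lists limited to the length of the shortest, 4 of 6 were met in shTRA2A, 66.7% beside 22.1% of all, and 1 of 6 in shMETTL3, 16.7% beside 25.5%. By gene, the share with an shTRA2A peak was 100% with that limit (3 of 3), beside 42.8% of coding genes with an shNC peak. In shMETTL3 it was 66.7% (2 of 3), beside 49.2%. With the better-scoring 50% of each list it was 66.7% in both (2 of 3), beside 24.4% in shTRA2A and 41.8% in shMETTL3. With regular peaks or without SOX13 it was 100% in both knockdown lists (4 of 4), because SOX13 drops out. The shares of coding genes were 23.3 and 42.7% with regular peaks. Where an shNC peak of the gene had to be met, it was 80% in shTRA2A and 60% in shMETTL3, beside 15.8 and 28.3%. Both score limits left 4 SOX peaks in shMETTL3 and 6 in shNC.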

Other observations

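The strongest peaks near SOX2 lay outside its body, in the long non-coding RNA SOX2-OT, and in shNC alone. One of 75 nt at 3:181711268-181711342, 583 nt before the first base of SOX2, had a score of 82.2 and rank 85 of 9206. The other, also of 75 nt at 3:181722204-181722278, had a score of 81.0 and rank 89. Neither knockdown list had a peak at either place. In shMETTL3, SOX2-OT had a further peak spanning 6701 nt at 3:181614577-181621277 (score 8.51), whose number of blocks is not given here. The antisense transcripts SOX9-AS1 (17:72071042-72120793) and SOX5-AS1 (12:24223271-24237965) had no peak in any list. Within 5000 nt of the other SOX bodies there was 1 shMETTL3 peak on the minus strand 4968 nt from SOX12 (score 7.04) and 1 shTRA2A peak 2381 nt from SOX15 (score 8.50).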
